A study of Mus musculus with 12 samples.

Results

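The interferon-inducible p200 genes, also called PYHIN or HIN-200 genes, form a single cluster on distal mouse chromosome 1. The 8 genes described here, of 21713 named on the array, are Mndal, Ifi211, Ifi202b, Ifi203, Ifi204, Ifi205, Aim2 and Pyhin1. They were represented by 16 probes of the 39429 gene probes on the array, chosen by the gene symbol of the platform annotation, current or older. Ifi211 is listed there as Mnda, and Pyhin1 is Ifi209 in the current gene table. All 16 probes passed the filter on dim signal, as did 39239 gene probes in all. Members of the family resemble one another in sequence to differing degrees and the probe sequences were not used here, so a probe's value may be uncertain between related genes.

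RNA of 12 individual mice at postnatal day 14 was measured on 2-colour arrays, 1 array per mouse, with 4 Bl6, 4 CSS1 and 4 CSS2 mice. Bl6 is C57BL/6J, and a pool of Bl6 RNA was the second sample on every array. In every strain the RNA of 2 mice carried Cy5 and that of 2 carried Cy3. The names CSS1 and CSS2 were read as those of chromosome substitution strains, in which 1 chromosome, here 1 or 2, comes from a donor on the Bl6 background. The labels state neither this nor the donor. The labels name hippocampus while the design text speaks of brains, and 12 of 12 hippocampal marker genes, such as Prox1 and Wfs1, were above background on all arrays. On each array 89.6 to 99.9% of gene probes were above background, so these markers do not separate hippocampus from brain. The title of the series concerns Srp9 and febrile seizures, and the comparison asks here which p200 probes differ in signal between the strains. Strain sequences under the probes were not examined, so differences in RNA level and in probe binding cannot be told apart.

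Proteins of the p200 family carry a HIN domain that binds DNA, and most also carry a pyrin domain for contacts with other proteins. Aim2 senses double-stranded DNA in the cytosol and recruits the adaptor Pycard and caspase-1 into an inflammasome, while p204, the product of Ifi204, takes part in DNA sensing through Sting. Type I and type II interferons induce many members, and in the brain the family is best known from microglia and other innate immune cells. Interferons act on promoters through short sequences, among them the interferon-stimulated response element and the gamma-activated site. In bulk tissue, fewer cells of a type and less RNA per cell cannot be told apart.

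RefSeq promoter windows of build GRCm38.p6, from 250 bases before to 50 bases after an annotated start, were available for 7 of the 8 genes. The core of the interferon-stimulated response element was searched on both strands as the letters GAAA, 2 bases of any kind, and GAAA again. It matched in windows of 4 members, Mndal, Ifi211, Ifi203 and Ifi205, against 3.44% of 32851 windows and 3.99% of 27025 genes genome-wide. It matched no window of Aim2, Ifi202b or Pyhin1. The windows of the 4 genes with a match and of Ifi202b are shown because 1 probe of each of these 5 genes differed between CSS1 and Bl6. All are on the minus strand, written 5′ to 3′, and capitals mark the motif.
Mndal, chr1:173880138-173880437: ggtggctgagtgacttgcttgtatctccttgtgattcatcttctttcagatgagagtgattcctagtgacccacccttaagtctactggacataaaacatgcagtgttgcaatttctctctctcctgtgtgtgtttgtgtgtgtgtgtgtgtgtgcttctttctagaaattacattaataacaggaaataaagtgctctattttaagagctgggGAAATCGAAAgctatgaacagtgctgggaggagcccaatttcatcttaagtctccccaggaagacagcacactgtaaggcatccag
Ifi211, chr1:173912997-173913296: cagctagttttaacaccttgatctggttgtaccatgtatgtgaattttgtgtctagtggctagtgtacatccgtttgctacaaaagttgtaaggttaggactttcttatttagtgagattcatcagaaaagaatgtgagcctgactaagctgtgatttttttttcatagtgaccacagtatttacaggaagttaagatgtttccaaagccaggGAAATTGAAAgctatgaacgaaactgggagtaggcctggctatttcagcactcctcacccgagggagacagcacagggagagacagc
Ifi203, chr1:173942443-173942742: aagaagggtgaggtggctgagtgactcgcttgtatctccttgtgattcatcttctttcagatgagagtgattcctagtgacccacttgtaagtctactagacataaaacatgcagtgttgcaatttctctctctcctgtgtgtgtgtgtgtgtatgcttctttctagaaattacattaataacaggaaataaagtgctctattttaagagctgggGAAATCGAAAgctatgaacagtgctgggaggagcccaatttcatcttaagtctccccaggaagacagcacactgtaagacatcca
Ifi205, chr1:174031706-174032005: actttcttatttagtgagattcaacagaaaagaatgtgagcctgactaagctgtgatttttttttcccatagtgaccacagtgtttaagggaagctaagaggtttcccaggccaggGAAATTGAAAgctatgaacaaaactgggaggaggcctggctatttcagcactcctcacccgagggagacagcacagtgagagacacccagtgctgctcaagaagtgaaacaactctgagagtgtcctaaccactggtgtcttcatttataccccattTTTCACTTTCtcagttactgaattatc
Ifi202b, chr1:173982795-173983094: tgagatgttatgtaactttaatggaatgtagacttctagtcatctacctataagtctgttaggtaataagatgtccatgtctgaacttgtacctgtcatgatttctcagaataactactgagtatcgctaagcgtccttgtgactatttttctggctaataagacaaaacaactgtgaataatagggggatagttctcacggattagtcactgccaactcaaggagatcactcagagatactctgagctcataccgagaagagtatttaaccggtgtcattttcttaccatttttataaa

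In the Mndal, Ifi211 and Ifi203 windows the match began 36, 37 and 35 bases before the start. Ifi205 had 2 matches, 1 beginning 134 bases before the start and 1 on the opposite strand, 23 bases after it. A second annotated start of Mndal, at chr1:173879909-173880208, also had a match, and a second one of Ifi203, at chr1:173942623-173942922, had none. The Mndal and Ifi203 windows printed were identical at 97.6% of 289 aligned bases, and those of Ifi205 and Ifi211 at 94.0% of 201. The gamma-activated site, searched as TTCNNNGAA, matched once in the Ifi202b window and in no other member's window, against 8.3% of all windows. The core element also matched in all 5 other p200 genes with a window, Ifi206, Ifi207, Ifi208, Ifi213 and Ifi214. A match describes these letters and shows no binding.

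Median sample signals were 188 to 408 units over median local backgrounds of 36 to 42. Background control spots had a 95th percentile of 41.8 to 64.0 units in the sample channel, and 89.6 to 99.9% of gene probes exceeded it, with the lowest share in CSS2 mouse 1. Of the 16 family probes, 14 exceeded that level in all 12 sample channels. The probes MMAC000857 for Ifi202b and MMAC018239 for Ifi203 exceeded it in 11 of 12, the exception being CSS2 mouse 1. Log ratios of arrays with the same dye orientation correlated between 0.168 and 0.70 across probes, so no array repeated another.

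In CSS1 against Bl6, 5 of the 16 family probes were lower and 1 was higher (limma, adjusted p under 0.05 over all probes tested), which is 37.5% of the family. The background was 1.73% of all probes tested, 0.826% lower and 0.907% higher, and 7.67% of chromosome 1 probes. Mndal and Ifi211 had the largest falls in the family, at 2.58-fold and 2.20-fold, followed by 1 probe each of Ifi203, Ifi205 and Ifi204, while 1 probe of Ifi202b rose. Aim2 and Pyhin1 did not pass the test. The family's median log2 difference was 0.03 against -0.0029 over all probes, and the 10 probes that did not pass lay between -0.05 and 0.18. In 9 of the 16 probes the 4 CSS1 mice and the 4 Bl6 mice did not overlap, against 7.68% of all probes. The count was 2 of 16, Mndal and Ifi211, when arrays were centred on their median in place of loess normalization.

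**Figure D1:**
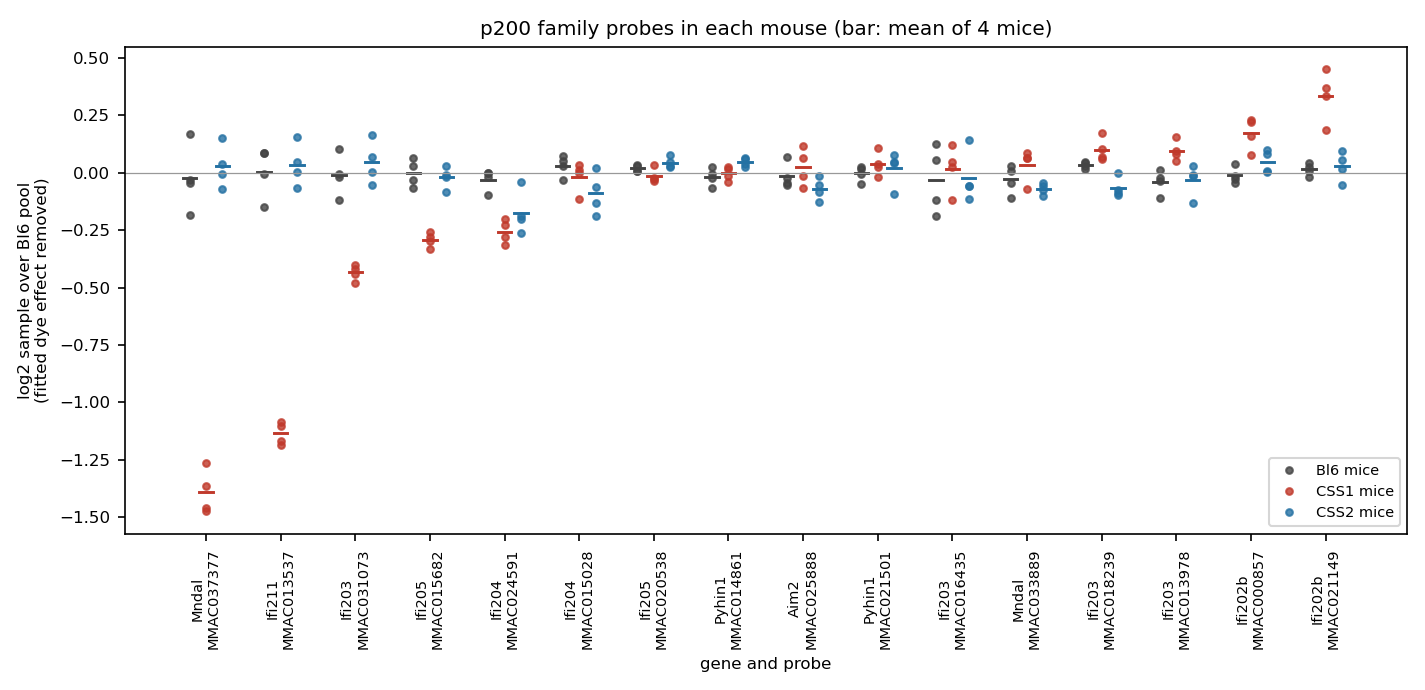
Each point is 1 mouse, as log2 of sample over Bl6 pool with the fitted dye effect removed, for the 16 family probes, and bars are means of 4 mice. The CSS1 mice lie between -1.48 and -1.26 for Mndal probe MMAC037377 and between -1.19 and -1.08 for Ifi211, below every Bl6 and CSS2 mouse.

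Mndal belongs to the cluster's genes named for their likeness to human MNDA, the myeloid nuclear differentiation antigen. At probe MMAC037377 the log2 ratio of sample over pool was -1.46, -1.36, -1.26 and -1.48 in CSS1 mice 3, 6, 9 and 12. It was -0.03, -0.18, -0.04 and 0.17 in Bl6 mice 2, 5, 8 and 11. In CSS2 mice 1, 4, 7 and 10 it was 0.04, -0.07, -0.01 and 0.15. Every CSS1 mouse was lower than every other mouse, while Bl6 and CSS2 overlapped. The mean was -1.39 ± 0.10 (SD, n = 4) in CSS1 against -0.02 ± 0.15 in Bl6, a difference of -1.37 ± 0.08 (SE; limma adjusted p = 4.57e-06). The other Mndal probe, MMAC033889, differed by 0.06 ± 0.04 (SE; adjusted p = 0.708), with a 95% interval of -0.03 to 0.16. This second probe was dim, with Bl6 sample signals of 78.6 to 88.7 units against 268 to 391 at MMAC037377, so it could show less of a fall. The probes of this gene thus gave different values at unlike brightness. At MMAC033889, CSS1 mouse 12, at -0.07, lay apart from the other CSS1 mice, at 0.06 to 0.09.

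The same contrast is visible in the unprocessed signals of Mndal probe MMAC037377. With the mouse RNA in Cy3, the sample signal was 92.1 and 99.8 units in CSS1 mice 3 and 9, or 22.3% and 21.2% of the pool's signal on the same spot. In the same dye it was 58.5% and 81.2% of the pool in Bl6 mice 2 and 8 and 56.5% and 50.7% in CSS2 mice 1 and 7. With the mouse RNA in Cy5 it was 50.2% and 47.1% of the pool in CSS1 mice 6 and 12, 169.5% and 179% in Bl6 mice 5 and 11, and 244% and 196% in CSS2 mice 4 and 10. Within either dye the CSS1 mice were lowest. The CSS1 signals stayed above the control level of their channels, 45.2 to 58.9 units. Within the Cy5 mice alone the difference between CSS1 and Bl6 was -1.41 and within the Cy3 mice -1.32.

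Ifi211 is a neighbour of Mndal and was measured by the single probe MMAC013537. Its log2 ratio was -1.08, -1.19, -1.17 and -1.10 in CSS1 mice 3, 6, 9 and 12 and 0.09, -0.15, -0.01 and 0.09 in Bl6 mice 2, 5, 8 and 11. In CSS2 mice 1, 4, 7 and 10 it was -0.07, 0.00, 0.05 and 0.15. The CSS1 mice again formed a separate low group and the other strains overlapped. The difference between CSS1 and Bl6 was -1.14 ± 0.06 (SE; limma adjusted p = 3.06e-06). The CSS1 sample signals were 67.4 to 76.0 units, near the control level of 45.2 to 58.9 units in those channels, while the pool on the same arrays gave 143 to 255 units. The size therefore depended on the background correction, and without the offset of 50 units, an alternative chosen after seeing the data, the difference was -1.84. No second probe was available to set beside it.

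**Figure D2:**
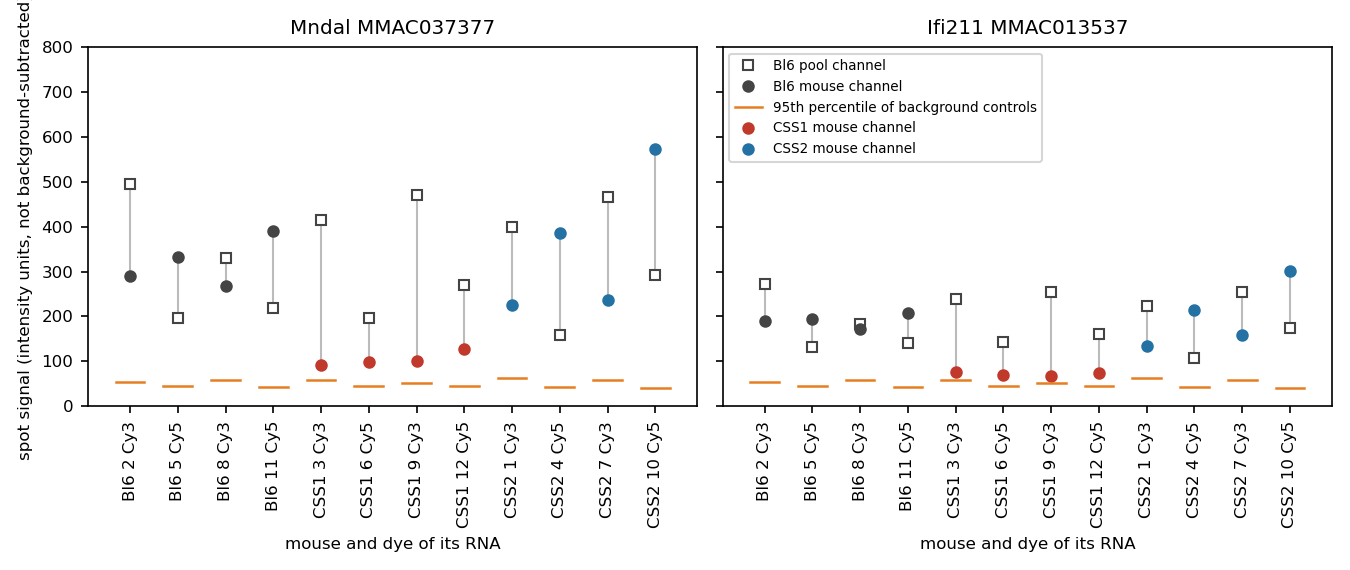
Spot signals of Mndal probe MMAC037377 and the Ifi211 probe on each array, in intensity units without background subtraction, for the mouse RNA (filled circles) and the Bl6 pool (open squares), with the 95th percentile of background controls in the sample channel as a line. In all 4 CSS1 arrays the mouse signal lies below the pool signal in either dye, at 92.1 to 127 units for Mndal and 67.4 to 76.0 for Ifi211.

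Ifi203 was measured by 4 probes, of which 1 was lower in CSS1. At probe MMAC031073 the log2 ratio was -0.44, -0.48, -0.40 and -0.42 in CSS1 mice 3, 6, 9 and 12 against -0.02, -0.12, -0.01 and 0.10 in Bl6 mice 2, 5, 8 and 11. CSS2 mice 1, 4, 7 and 10 were at 0.07, -0.05, 0.00 and 0.17. No CSS1 mouse overlapped a mouse of the other strains. The difference was -0.42 ± 0.05 (SE; limma adjusted p = 0.00342), and -0.80 without the offset. The other 3 Ifi203 probes were at 0.05, 0.07 and 0.13 and did not pass (adjusted p = 0.933, 0.559 and 0.194). The probes of Ifi203 thus disagreed with one another, though MMAC018239, at 0.07, was dim (Bl6 sample signals of 68.8 to 78.5 units).

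Ifi205 encodes p205, studied in macrophage differentiation and as a regulator of inflammasome adaptor expression. At probe MMAC015682 the CSS1 mice 3, 6, 9 and 12 were at -0.26, -0.33, -0.30 and -0.28, and the Bl6 mice 2, 5, 8 and 11 at -0.03, 0.03, 0.06 and -0.07. CSS2 mice 1, 4, 7 and 10 were at -0.02, -0.01, -0.08 and 0.03. The CSS1 mice did not overlap the others, and the difference was -0.29 ± 0.04 (SE; limma adjusted p = 0.00381). The second Ifi205 probe, MMAC020538, was at -0.03 ± 0.03 (SE; adjusted p = 0.807). It was dimmer, with Bl6 sample signals of 72.4 to 84.5 units against 170 to 225 at MMAC015682. The call of MMAC015682 was lost with median centring (adjusted p = 0.0746) and without the dye term (adjusted p = 0.152).

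Ifi204 gave the weakest of the called differences. At probe MMAC024591 the CSS1 mice 3, 6, 9 and 12 were at -0.28, -0.32, -0.23 and -0.20 against -0.0009, -0.0033, -0.02 and -0.10 in Bl6 mice 2, 5, 8 and 11. CSS2 mice 1, 4, 7 and 10 were at -0.19, -0.04, -0.20 and -0.26 and overlapped both strains. The difference between CSS1 and Bl6 was -0.23 ± 0.05 (SE; limma adjusted p = 0.0465). It lost the call when any 1 mouse was left out other than CSS2 mouse 4 or 10, with adjusted p = 0.0546 to 0.167, and was -0.44 without the offset. It also lost the call with consecutive mouse numbers as a block (adjusted p = 0.0649), with median centring, with scale normalization, with no dye term, and with only these strains fitted (adjusted p = 0.0509 to 0.119). The other Ifi204 probe, MMAC015028, was at -0.05 ± 0.05 (SE; adjusted p = 0.866).

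Ifi202b, which lacks a pyrin domain and is known as a candidate gene of murine lupus, was the member that rose. At probe MMAC021149 the CSS1 mice 3, 6, 9 and 12 were at 0.33, 0.37, 0.45 and 0.18, and the Bl6 mice 2, 5, 8 and 11 at -0.02, 0.04, 0.03 and 0.01. CSS2 mice 1, 4, 7 and 10 were at 0.02, 0.10, -0.05 and 0.06, so that all CSS1 mice were above all others. The difference was 0.32 ± 0.05 (SE; limma adjusted p = 0.0136), and 0.57 without the offset. The call was lost without Bl6 mouse 2 (adjusted p = 0.0601), without CSS1 mouse 3 (adjusted p = 0.0524) and with median centring (adjusted p = 0.117). The second Ifi202b probe, MMAC000857, was at 0.18 ± 0.04 (SE; adjusted p = 0.0553), with CSS1 mice at 0.23, 0.22, 0.16 and 0.08 above the Bl6 mice at -0.04 to 0.04. It passed without CSS1 mouse 12 (adjusted p = 0.0234). These are dim probes, with CSS1 sample signals of 97.2 to 124 and 74.1 to 115 units.

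Aim2, the DNA sensor, and Pyhin1, whose human counterpart is known as the antiproliferative protein IFIX, stayed close to the pool in all strains. Aim2 ranged from -0.06 to 0.07 in Bl6, from -0.07 to 0.11 in CSS1 and from -0.13 to -0.02 in CSS2, and its difference between CSS1 and Bl6 was 0.04 with a 95% interval of -0.06 to 0.14. The Pyhin1 probes were at 0.04 (95% interval -0.05 to 0.14) and 0.02 (95% interval -0.05 to 0.08). Over the 10 family probes that did not pass in this comparison, the 95% intervals lay between -0.16 and 0.28. These bounds hold for the values with the offset: without it, Ifi202b probe MMAC000857 was at 0.41 (adjusted p = 0.0541).

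**Figure D3:**
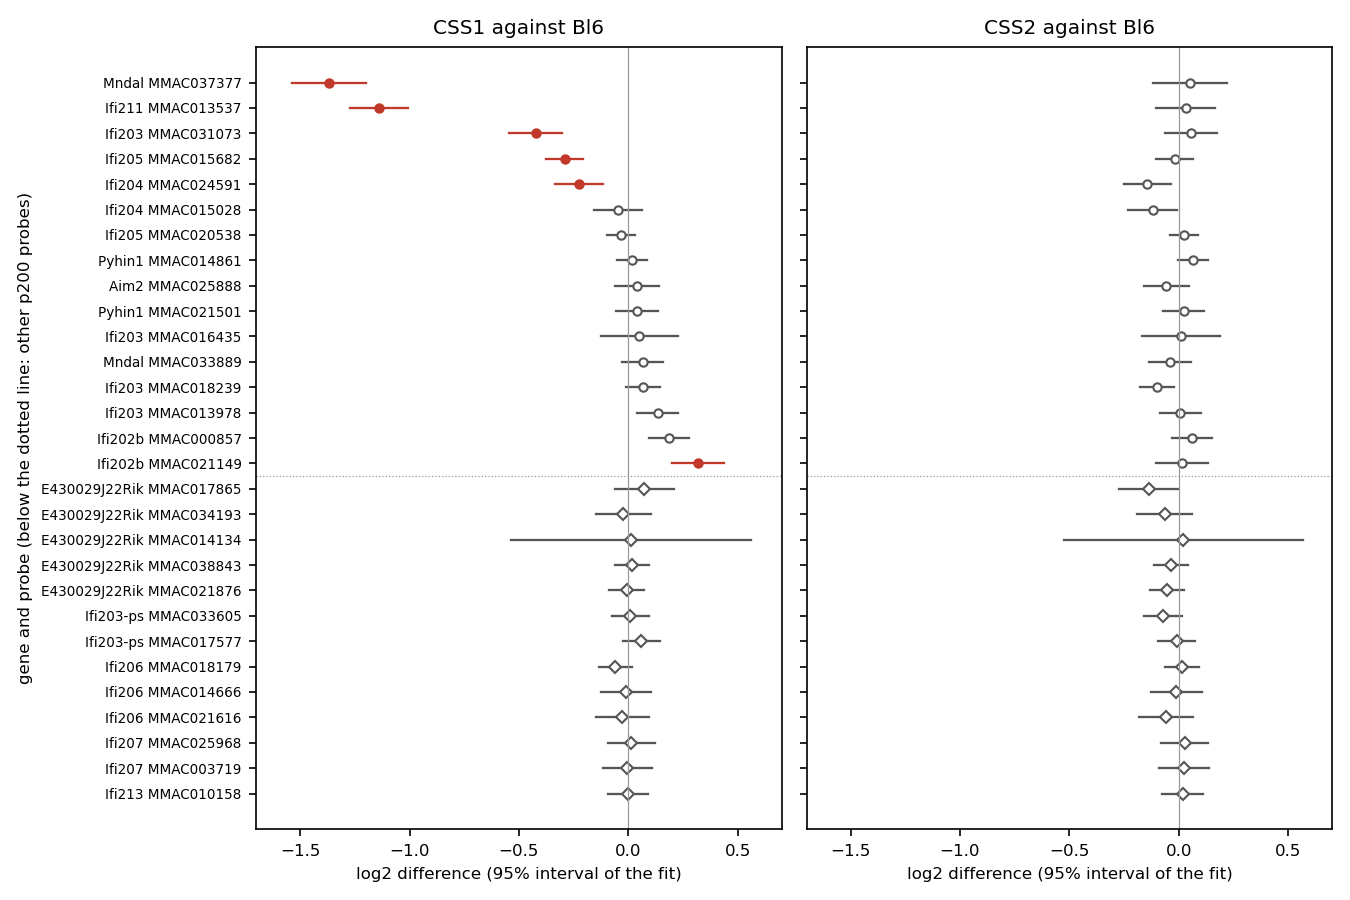
Log2 differences of CSS1 and of CSS2 from Bl6 with 95% intervals of the fit, for the 16 family probes and, under the dotted line, 13 probes of other p200 genes. Filled points passed the adjusted threshold, which 6 family probes did for CSS1 and 0 for CSS2.

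The rest of the cluster was read on 14 probes of other p200 genes, namely Ifi203-ps, Ifi206, Ifi207, Ifi213 and the older symbol E430029J22Rik, which the current gene table does not tie to a single gene. Of these, 13 passed the dim-signal filter, and none was called by limma in any of the 3 comparisons. Over all probes, 1.73% were called in CSS1 against Bl6, 0.905% in CSS2 against Bl6 and 0.917% between CSS1 and CSS2. With 13 probes, 0 calls cannot be told from those shares. Several of the 13 were also dim, such as that of Ifi213, with Bl6 sample signals of 53.9 to 62.3 units. At an unadjusted p under 0.05 there were 0 for CSS1 against Bl6 and 1 in each of the other comparisons. Their median difference was -0.0025 for CSS1 and -0.01 for CSS2 against Bl6. Among them 1 E430029J22Rik probe, MMAC014134, had an interval reaching from -0.53 to 0.56 for CSS1, so little can be said of it.

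In gene order the cluster runs from Aim2 through Ifi206, Ifi214, Ifi213, Pyhin1, Ifi208, Ifi207, Ifi204, Ifi203-ps, Mndal, Ifi211, Ifi203 and Ifi202b to Ifi205. The 6 called probes belong to genes at places 8 and 10 to 14 of these 14, and no tested probe of the genes at places 1 to 7 or 9 was called. Several of the uncalled probes were dim, so a fall there could be missed and no boundary within the cluster can be drawn. Bl6 sample signals were 53.9 to 62.3 units for Ifi213 and 60.9 to 72.4 for Ifi207 probe MMAC003719. The control level of the Bl6 sample channels was 43.4 to 57.7 units. Ifi214 and Ifi208, at places 3 and 6, had no probe assigned to them. Outside the cluster the 15 nearest measured genes on each side were examined at their brightest probe, where 2.03% of all genes were called in CSS1 against Bl6. Of the 30 neighbours, 2 were lower and 0 higher, or 6.67%. Both were on the Aim2 side. Of all tested chromosome 1 probes 7.67% were called, a share that counts every probe and not 1 per gene. Ackr1, an atypical chemokine receptor and the second measured gene before Aim2, differed by -0.53 ± 0.06 (SE; limma adjusted p = 0.00108), and Vsig8, a membrane protein of the immunoglobulin superfamily, by -0.48 ± 0.06 (adjusted p = 0.00216). None of the 15 genes beyond Ifi205, mostly olfactory receptors, was called, the largest difference there being -0.13 for Fmn2 (adjusted p = 0.533).

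**Figure D4:**
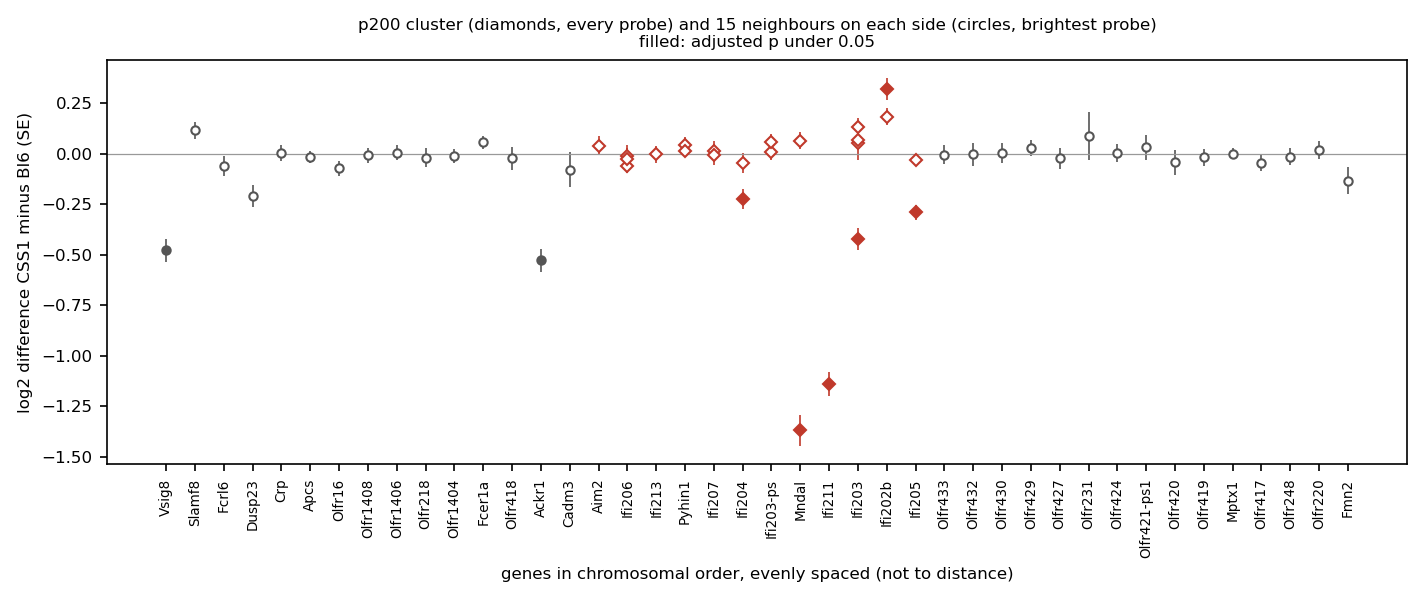
Log2 difference between CSS1 and Bl6 with its SE, by gene order along chromosome 1 (evenly spaced, not to distance), for every tested p200 probe of a placed gene (diamonds) and the brightest probe of 15 neighbours on each side (circles). Filled points passed the adjusted threshold: 6 p200 probes, from Ifi204 to Ifi205, and the neighbours Ackr1 and Vsig8.

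In CSS2 against Bl6, 0 of the 16 family probes passed (limma), where 0.905% of all probes (0.362% lower and 0.543% higher) and 0.883% of chromosome 1 probes did. At an unadjusted p under 0.05 there were 3 family probes, which were both Ifi204 probes and Ifi203 probe MMAC018239, at -0.14, -0.12 and -0.10. In this comparison an unadjusted limma p of 0.0453, at E430029J22Rik probe MMAC017865, ranked 3400 of 39239 probes. The smallest adjusted p in the family was 0.332. Mndal probe MMAC037377 differed by 0.05, with a 95% interval of -0.12 to 0.22, and Ifi211 by 0.03, with an interval of -0.10 to 0.16. The intervals of all 16 probes lay between -0.25 and 0.22, and the family's median was 0.01 against -0.0001 over all probes. Mice of CSS2 and Bl6 did not overlap at 2 of the 16 probes, against 6.76% of all probes.

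CSS1 and CSS2 were also compared directly, with all ratios set against the same Bl6 pool. Of the 16 family probes 4 were lower and 1 higher in CSS1 (limma), or 31.25%, against 0.917% of all probes, 0.53% lower and 0.387% higher, and 5.74% of chromosome 1 probes. Mndal probe MMAC037377 was lower by 2.67-fold (-1.42 ± 0.08 SE, adjusted p = 1.94e-06) and Ifi211 by 2.25-fold (-1.17 ± 0.06, adjusted p = 1.51e-06). Ifi203 probe MMAC031073 was at -0.48 ± 0.05 (SE; adjusted p = 0.000908), Ifi205 probe MMAC015682 at -0.27 ± 0.04 (adjusted p = 0.00462) and Ifi202b probe MMAC021149 at 0.31 ± 0.05 (adjusted p = 0.0202). The 2 strains did not overlap at 8 of the 16 probes, against 5.97% of all probes. The Ifi204 probe MMAC024591, called against Bl6, was at -0.08 ± 0.05 (adjusted p = 0.772). Median centring left 2 of these calls, Mndal and Ifi211, and the fit without a dye term left 3. The Ifi202b call was lost without CSS1 mouse 3 or 6 or CSS2 mouse 1, 7 or 10 (adjusted p = 0.0615 to 0.0759).

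**Figure D5:**
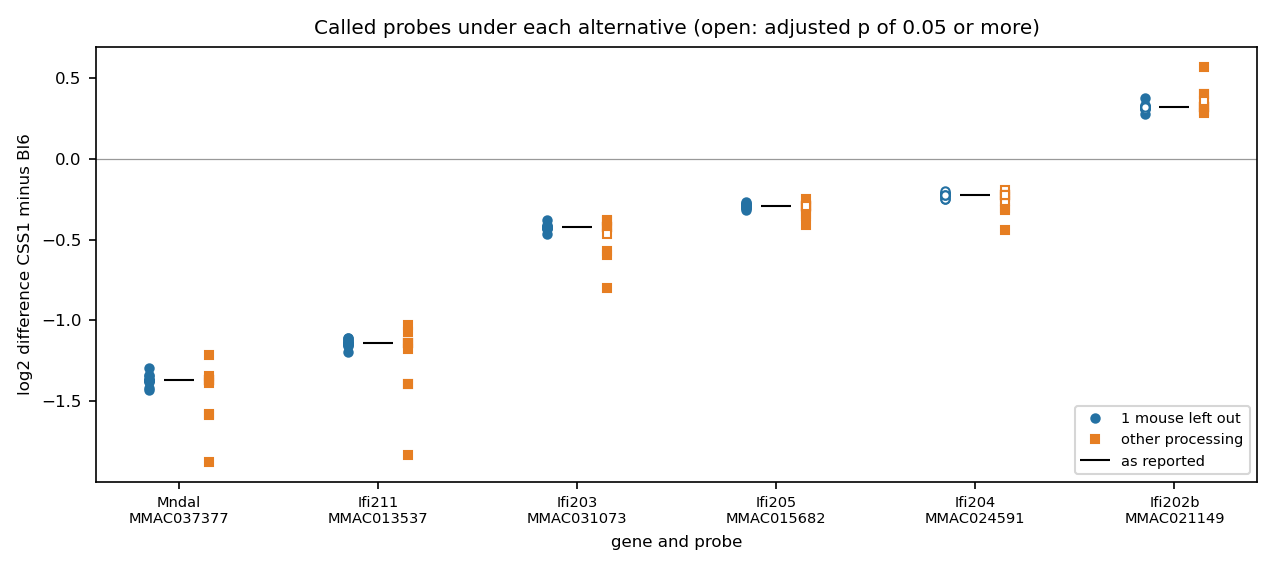
Log2 difference between CSS1 and Bl6 of the 6 called family probes with each of 12 mice left out in turn and under 10 other processing choices, with the reported value as a line and open symbols where the call was lost. Mndal and Ifi211 kept the call throughout, at -1.88 to -1.22 and -1.84 to -1.03, and the Ifi204 probe lost it in 15 of the 22 alternatives.

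The genes whose log2 ratio over the 12 mice was most like that of Mndal probe MMAC037377 were Chst10 (Pearson r = 0.989), Nvl (0.985), Cox5b (0.981), Stk25 (0.975) and Acadl (0.974). Those most like Ifi211 were Chst10 (0.985), Stk25 (0.985), Nvl (0.982), Ints7 (0.977) and Npas2 (0.972). All of these genes lie on chromosome 1, and Mndal and Ifi211 correlated with each other at 0.989. These values describe 12 mice in 3 strains that share 1 pool, and they reflect the separation of the 4 CSS1 mice from the other 8.

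The partners and regulators of the family were examined at the brightest probe of each gene. Of 24 measured genes of inflammasomes and DNA sensing, among them Pycard, Casp1, Sting1 and Cgas, 0 were called by limma in any of the 3 comparisons. In each comparison 1 had an unadjusted limma p under 0.05. Over all genes, 2.03% were called in CSS1 against Bl6, 1.04% in CSS2 against Bl6 and 0.97% between CSS1 and CSS2. With 24 genes, 0 calls cannot be told from those shares. The median was 0.01 in CSS1 and 0.02 in CSS2 against Bl6. The smallest p-values in CSS1 against Bl6 belonged to Nek7, which licenses the Nlrp3 inflammasome, at -0.14 (adjusted p = 0.226), and Mefv, which encodes pyrin, at 0.05 (adjusted p = 0.688). In CSS2 they belonged to the DNA sensor Cgas, at -0.08 (adjusted p = 0.478), and the RNA-editing enzyme Adar, at 0.10 (adjusted p = 0.596).

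Of 15 measured interferon receptor and signalling genes, 0 were called by limma in any comparison and 0 had an unadjusted p under 0.05. With 15 genes, 0 calls cannot be told from the share of all genes called, at most 2.03%. Irf8 and the receptor subunit Ifngr1 were at 0.08 and 0.07 in CSS1 against Bl6 (adjusted p = 0.653 and 0.689), and the feedback inhibitor Socs3 at 0.09 in CSS2 (adjusted p = 0.700). Of 44 other interferon-inducible genes, 0 were called in CSS1 against Bl6, where 2.03% of all genes were. Among the 44 there, 5 had an unadjusted limma p under 0.05, and the median was -0.0060 against -0.0017 over all genes. In that comparison an unadjusted limma p of 0.00945, at Ifi203 probe MMAC013978, ranked 1910 of 39239 probes. The class I gene H2-K1 was at 0.16 (adjusted p = 0.113) and the antiviral kinase Eif2ak2 at -0.14 (adjusted p = 0.207). In CSS2 against Bl6, where 1.04% of all genes were called, 1 of the 44 was lower and 8 had an unadjusted p under 0.05. There, an unadjusted limma p of 0.0453, at E430029J22Rik probe MMAC017865, ranked 3400 of 39239 probes. The median difference of the 44 was -0.05 against 0.0037 over all genes, and their median per mouse was -0.07 to -0.02 in CSS2 and -0.03 to 0.0052 in Bl6. The called gene was B2m, the light chain of class I molecules, encoded on chromosome 2, at -0.31 ± 0.06 (SE; limma adjusted p = 0.0308). Leaving out CSS1 mouse 3, or any single mouse of Bl6 or CSS2, ended that call (adjusted p = 0.0506 to 0.113). Between CSS1 and CSS2, where 0.97% of all genes were called, B2m differed by 0.44 ± 0.06 (adjusted p = 0.00243). That call was lost with median centring (limma adjusted p = 0.182) and with no dye term (adjusted p = 0.172).

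Markers of cells that express the family were read beside these values. All 17 measured microglia and macrophage markers were above background on all arrays, and 1, the lysosomal protease Ctss, was higher in CSS1 than in Bl6, by 0.32 ± 0.06 (SE; limma adjusted p = 0.0192), where 2.03% of all genes were called. The macrophage marker Mrc1 lay on the other side, at -0.25 ± 0.06 (SE; adjusted p = 0.0695), without passing. For Ctss, leaving out Bl6 mouse 2, 5 or 11, or else CSS1 mouse 3 or 9, ended that call (adjusted p = 0.0563 to 0.0745). The median of the 17 markers per mouse was 0.06 to 0.11 in CSS1, -0.06 to 0.04 in Bl6 and -0.04 to 0.05 in CSS2. These medians were higher in CSS1 than in the other strains, though only 1 of the 17 markers was called. At an unadjusted limma p under 0.05 there were 4 of the 17 in CSS1 against Bl6, the lower Mrc1 among them, and 1 in CSS2 against Bl6. Of 15 blood leukocyte markers, 13 were above background on all arrays and 1, the monocyte antigen Ly6c2, was higher in CSS1, by 0.43 ± 0.08 (SE; adjusted p = 0.0293), which lost the threshold when Bl6 mouse 2, 5 or 11 was left out, or when CSS1 mouse 3 or 6 was (adjusted p = 0.0706 to 0.111). The leukocyte median per mouse was -0.05 to 0.02 in CSS1 and -0.04 to 0.05 in Bl6. Of the 15, 3 had an unadjusted limma p under 0.05 in CSS1 against Bl6 and 4 in CSS2 against Bl6. The part of these cells in the p200 values was not tested. Of the 12 hippocampal markers none was called in any comparison, where at most 2.03% of all genes were. The largest difference named by the rule was Camk2a, at 0.37 in CSS1 against Bl6 (limma adjusted p = 0.0502). Neurod6 lay on the other side there, at -0.19 (adjusted p = 0.277). In CSS2 against Bl6, Calb1 was at 0.18 (adjusted p = 0.381) and Neurod6 at -0.18 (adjusted p = 0.419).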

How the data were processed

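RNA of 12 mice was measured on 2-colour arrays. The authors deposited the mean foreground and median local background intensity of each spot in each channel, not background-subtracted, per the file headers. The sources used here give no scanner, image software or genome build of the array. A table of log2 ratios that the authors deposited, normalized by an unstated method, served as an alternative. It followed sample over pool on 12 of 12 arrays (correlation with ratios computed here, dye effect removed, 0.699 to 0.981), with column medians of -0.0050 to 0.0059. Per the labels, channel 1 held Cy5 and channel 2 Cy3, and the files' channel numbers were taken to follow the labels'.

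In limma 3.58.1 (R 4.3.3), normexp with an offset of 50 corrected the background and global loess normalized each array, giving weight 0 to 2200 control spots and 3591 quality spots. Ratios were turned to sample over pool. Of 39429 gene probes, 39239 had a mean log2 intensity above 6.23, the 95th percentile of 1580 spots of 3 control types. limma with strain and dye orientation as terms was run on all 12 arrays, with eBayes on 8 residual degrees of freedom and a prior of 3.21. Two-sided p-values were adjusted over the 39239 probes by Benjamini-Hochberg, at 0.05. Values per mouse have the fitted dye effect removed. The fit was tested on simulated data. The number of arrays limits the precision. Folds set on the log2 scale with the offset understate changes of dim probes.

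Of the gene probes, 32431 had 1 symbol, 0 several and 6998 none, updated through a GRCm38.p6 gene table that served for names, chromosomes and gene order. Promoters were searched in Python 3.11.15 and aligned with Biopython 1.88. Named were all family probes, and of each other list up to 4 called genes by size or up to 2 by p, called neighbours, and the 5 genes most alike by Pearson r. Members, lists, tests and alternatives were chosen with earlier results of these data known. Alternatives changed the background correction, normalization, dye term, samples fitted, filter, array weights and blocks, used the authors' values, or left out each mouse.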

Additional observations from a re-analysis of the deposited data

Results flagged for a closer look

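Of 48 groups of 4 mice tested for an outlying mouse, 1 gave one, where chance gives about 1 in 20. It was CSS1 mouse 12 at the Mndal probe MMAC033889, whose log2 ratio was -0.0727 while the other CSS1 mice lay at 0.06 to 0.09. Without that mouse the difference between CSS1 and Bl6 still did not pass.

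For 5 probes the difference from Bl6 in CSS1 was itself different from that in CSS2, by limma's test of CSS1 against CSS2. These were Mndal MMAC037377 at -1.42 (adjusted p = 1.94e-06), Ifi211 MMAC013537 at -1.17 (adjusted p = 1.51e-06) and Ifi203 MMAC031073 at -0.48 (adjusted p = 0.000908). The other pair was Ifi205 MMAC015682 at -0.27 (adjusted p = 0.00462) and Ifi202b MMAC021149 at 0.31 (adjusted p = 0.0202). The Ifi202b difference did not pass with 5 of the 12 mice left out in turn, and the other 4 passed with each mouse left out.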

How the results depend on the processing

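The strains share no mouse number, so the labels pair no mice. Each run of 3 consecutive mouse numbers holds 1 mouse per strain in 1 dye, and these runs were fitted as a block in place of the dye term. That block ended the call of Ifi204 MMAC024591 against Bl6 (adjusted p = 0.0649), leaving 5 family calls there in place of 6, and that of Dusp23 between CSS1 and CSS2 (adjusted p = 0.0585). No called p200 difference changed direction under the 22 alternatives run, which were 10 processing choices and 12 fits with 1 mouse left out. Mndal MMAC037377 and Ifi211 kept the call in all of them. With median centring in place of loess the family count was 2 in CSS1 against Bl6 and 2 in CSS1 against CSS2, and without the dye term the latter was 3. With 1 mouse left out these counts were 4 to 6 and 4 to 5, and CSS2 against Bl6 gave 0 in all 22.

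Counts over all probes moved more. Median centring gave 177 in CSS1 against Bl6 (680 as reported), 179 in CSS2 against Bl6 (355) and 163 in CSS1 against CSS2 (360). Dropping the dye term gave 219, 149 and 211 in the same order. Fitting only the 2 strains compared gave 355 for CSS1 against Bl6 and 236 for CSS1 against CSS2. Array weights gave 1559 for CSS1 and 595 for CSS2 against Bl6, and consecutive mouse numbers as a block gave 545 for CSS2 against Bl6. With 1 mouse left out, CSS1 against Bl6 gave 247 to 816 (247, 316 and 406 for Bl6 mice 2, 5 and 11, 277 and 416 for CSS1 mice 3 and 9). CSS2 against Bl6 gave 169 to 357 (177, 187 and 236 for Bl6 mice 2, 5 and 11, 218, 216 and 169 for CSS2 mice 1, 4 and 10), and CSS1 against CSS2 gave 237 to 369, the lowest for CSS2 mouse 10. The cause was not tested.

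Among single probes, Ifi203 MMAC031073 lost its call against Bl6 with median centring (adjusted p = 0.0746). Ifi202b MMAC000857 passed with no background subtraction, array weights and the authors' values (adjusted p = 0.0341, 0.0119 and 0.0343). Ifi203 MMAC013978 passed against Bl6 with array weights (adjusted p = 0.0368). B2m, Ctss and Ly6c2 lost their calls against Bl6 under median centring, and also when the dye term was dropped (adjusted p = 0.0808 to 0.648). Ctss and Ly6c2 also lost them with scale normalization (adjusted p = 0.193 and 0.144), and Ly6c2 with only these strains fitted (adjusted p = 0.0551). Ackr1 and Vsig8 kept theirs in all 22. With the authors' values Mndal was at -1.58 and Ifi211 at -1.40, against -1.37 and -1.14 here, and the cause was not tested.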

Other observations

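Between CSS1 and CSS2, 0.97% of all genes and 5.74% of chromosome 1 probes were called. Of the 30 neighbours of the cluster, each read at its brightest probe, 3 (10%) were lower in CSS1. They were Ackr1 and Vsig8 at -0.60 and -0.42 (limma adjusted p = 0.000213 and 0.00357), and Dusp23, a dual-specificity phosphatase gene, at -0.27 (adjusted p = 0.0492). The Dusp23 call was lost without any 1 mouse other than Bl6 mouse 2 or 8 (adjusted p = 0.0653 to 0.189). Ctss was also higher in CSS1 than in CSS2, by 0.30 (adjusted p = 0.0355), a call lost without Bl6 mouse 2 or 5, any CSS1 mouse or CSS2 mouse 7 or 10 (adjusted p = 0.0587 to 0.133).

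The neutrophil gene S100a8 was at -0.53 ± 0.15 (SE) in CSS2 against Bl6 without passing (adjusted p = 0.186), and was at -0.14 ± 0.15 in CSS1 (adjusted p = 0.869). Ly6g was at 0.15 ± 0.05 in CSS2 (adjusted p = 0.224) and 0.17 ± 0.05 in CSS1 (adjusted p = 0.112). The perivascular macrophage marker Mrc1 was at -0.21 ± 0.06 in CSS2 (adjusted p = 0.179) and -0.25 ± 0.06 in CSS1 (adjusted p = 0.0695).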
